A study of Homo sapiens with 72 samples.

Results

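The transcripts described here are those of the mitochondrial genome, measured in 3 human cervicovaginal epithelial cell lines exposed to polyamines and to the bacterium Gardnerella vaginalis (GV). Members were all genes whose GENCODE release 44 symbol begins with MT-, which gave 37 of the 62266 genes in the table of counts, made up of 13 mRNA, 2 rRNA and 22 tRNA genes. The lines were ectocervical (Ecto), endocervical (Endo) and vaginal (VK2) epithelium, each immortalized with the papillomavirus genes E6 and E7, and each is a single line. Cells of all groups therefore carry E6 and E7, and a difference between lines cannot be told apart from a difference between 3 individual lines.

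Within each line 4 groups received live GV (10000000 CFU per well, 24 h) and 4 did not. Groups with GV were pretreated for 4 h with putrescine (PUT+GV, 4 mM), spermidine (SPD+GV, 400 µM) or spermine (SPM+GV, 400 µM), or were non-treated (NT+GV). Their counterparts without the bacterium were PUT+noGV, SPD+noGV, SPM+noGV and NT+noGV. Each group had 3 libraries, which makes 24 per line and 72 in all. No source says that the 3 were separate cultures, so p-values measure the spread between these libraries, which may be technical. The PUT+GV, SPD+GV and SPM+GV groups were each set against the same NT+GV libraries, so their comparisons are not independent of one another.

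The human mitochondrial genome is a small circular DNA present in many copies per cell. It encodes proteins of the respiratory chain and the ATP synthase, together with the rRNAs and tRNAs that the organelle uses to translate them. Both strands are copied by the mitochondrial RNA polymerase POLRMT as long precursors, and the tRNAs that lie between the other genes are cut out to release the mRNAs and rRNAs. The steady level of each mRNA is then set largely by its stability, in which the LRPPRC and SLIRP proteins take part. Complex I (NADH dehydrogenase) holds the 7 ND proteins, complex III holds cytochrome b (MT-CYB), complex IV (cytochrome c oxidase) holds MT-CO1, MT-CO2 and MT-CO3, and the ATP synthase holds MT-ATP6 and MT-ATP8. All remaining subunits are encoded in the nucleus. Putrescine is a diamine, and spermidine and spermine are made from it by adding aminopropyl groups, one and then a further one.

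Several members share bases or lie end to end, which decides how far their counts are separate measurements. The stretches below are from the GRCh38 reference, read 5′ to 3′ on the plus strand. In the first, chrM:8517-8582, capitals mark the 46 bases that belong to both MT-ATP8 and MT-ATP6, beginning with the start codon of MT-ATP6. In the second, chrM:10740-10786, capitals mark the 7 bases shared by MT-ND4L and MT-ND4. In the third, chrM:14119-14179, lower case is the end of MT-ND5 and capitals are the abutting end of MT-ND6, which is transcribed from the opposite strand.
MT-ATP8/MT-ATP6: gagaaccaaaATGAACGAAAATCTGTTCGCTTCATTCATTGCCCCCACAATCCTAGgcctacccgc
MT-ND4L/MT-ND4: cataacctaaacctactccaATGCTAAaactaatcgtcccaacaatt
MT-ND5/MT-ND6: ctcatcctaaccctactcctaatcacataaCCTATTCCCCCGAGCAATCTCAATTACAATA
MT-ATP8 with MT-ATP6, and MT-ND4L with MT-ND4, are each carried on one shared mRNA in human cells. The genes of a pair are thus not independent, although each was tested and counted on its own. The library method keeps strand, but the strand setting of the quantification is not given in the sources used here. Reads of MT-ND6 (ENSG00000198695.2, chrM:14149-14673) and reads of the opposite strand over the same bases therefore cannot be told apart.

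Library totals ran from 20152143 to 42767996 counts. Replicates varied the most in Ecto cells, with a biological coefficient of variation of 0.0643, beside 0.0451 for Endo and 0.0434 for VK2 cells. All 10 epithelial markers checked (keratins, CDH1, EPCAM and TP63) had a median of at least 1 CPM (counts scaled to a common library total) in every line, and their sum was 7390 to 36400 CPM across libraries. Summed fibroblast markers reached at most 77.9 CPM, leukocyte markers at most 122 CPM and endothelial markers at most 4.54 CPM. One library stood apart, Ecto SPD+noGV replicate 3. It had the highest share of mitochondrial mRNA in its line (4.45%, where the other Ecto libraries had at most 3.8%), a ratio of MT-RNR2 to MT-RNR1 counts of 2.92 where the other Ecto libraries had 4.6 to 5.38, and 156 CPM of RNA5-8SN2, a nuclear rRNA gene, against 11.3 and 13 CPM in the other libraries of its group. It belongs to none of the groups with GV, but it enters the estimate of spread of every Ecto test, so Ecto counts of mRNA genes inside the line are also given without it, an alternative added after seeing the data. The share of all genes passing was not taken for that fit, nor for any other alternative scaling or fit. Counts from such fits therefore have no background of their own, and the shares given beside the main counts do not apply to them.

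In cells with neither polyamine nor GV, the mitochondrial mRNAs formed a steep order of levels that was much the same in each line. Levels are given as CPM divided by gene length (CPM per kb, mean ± SD, n = 3 libraries). These CPM are scaled with TMM factors over all 72 libraries, which adjust library totals for composition. MT-CO2 (chrM:7586-8269) was the highest, with 5533 ± 45.9 CPM per kb in Ecto cells, 10215 ± 346 in Endo cells and 9837 ± 279 in VK2 cells. In Ecto cells MT-CO1, at 5419 ± 143 CPM per kb, and MT-ND4, at 5374 ± 146 CPM per kb, did not differ from MT-CO2 or from each other beyond their spread. MT-CO3 followed MT-CO2 in Endo cells (8946 ± 208 CPM per kb), and in VK2 cells MT-CO3 (7683 ± 68.5) and MT-CO1 (7621 ± 297 CPM per kb) lay within each other's spread.

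At the other end stood the complex I messages MT-ND3, MT-ND5 and MT-ND6. MT-ND3 and MT-ND5 were at 866 ± 32.7 and 865 ± 24.3 CPM per kb in Ecto cells, with no difference beyond their spread. MT-ND6, the one mRNA read from the other strand, was lowest in each line, with 98.2 ± 11 CPM per kb in Ecto cells, 168 ± 16.4 in Endo cells and 172 ± 27.9 in VK2 cells. MT-CYB, although it follows MT-ND6 at the end of the coding region, had 1610 ± 51.2 CPM per kb in Ecto cells, 2002 ± 12.4 in Endo cells and 1861 ± 72.3 in VK2 cells. The level of a gene was thus not a simple matter of its place along the genome: MT-ND5 (chrM:12337-14148) was several times lower than its neighbour MT-ND4 (chrM:10760-12137) in all 3 lines.

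**Figure D1:**
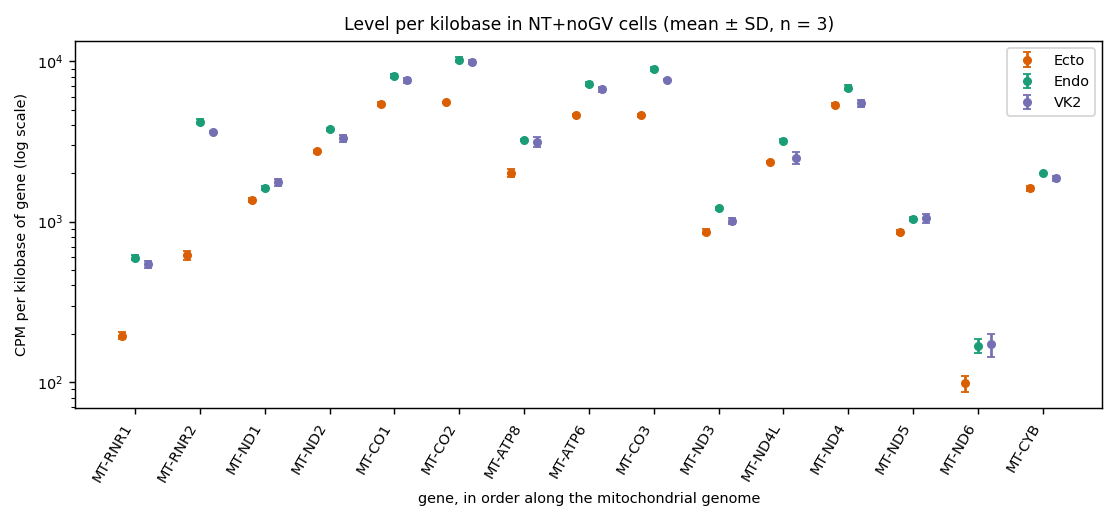
Level of the 13 mRNA and 2 rRNA genes in NT+noGV cells, in genome order, as CPM per kb on a log axis (mean ± SD, n = 3 libraries) for the 3 lines. MT-CO2 is the highest gene and MT-ND6 the lowest in each line, and the rRNA genes are the ones whose lines lie farthest apart, with MT-RNR2 at 617 in Ecto and 4205 CPM per kb in Endo cells.

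Ecto cells held less mitochondrial RNA than the other lines. Among NT+noGV libraries the 13 mRNA genes together took 3.54%, 3.65% and 3.6% of the counts of Ecto cells, 4.9%, 5% and 4.92% for Endo cells, and 4.23%, 4.34% and 4.42% for VK2 cells. The 3 lines did not overlap in this share. By edgeR's quasi-likelihood test in one model of all 72 libraries, 13 of 13 mRNA genes were lower in Ecto than in Endo cells, where 63.9% of all 21195 genes tested differed and 32% were lower. Against VK2 cells 11 of 13 were lower in Ecto cells (63.8% of all genes differed and 32% were lower), and MT-ND4 (log2 fold change -0.02, adjusted p = 0.72) and MT-ND4L (-0.09, adjusted p = 0.33) did not pass. The median log2 fold change of the mRNA genes was -0.48 against Endo and -0.36 against VK2 cells, beside 0.01 over all genes in both comparisons.

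Differences were unequal among the members. MT-CO3 was lower in Ecto than in Endo cells (log2 fold change -0.96, SE 0.05, adjusted p = 1.1e-24), with -0.74 against VK2 cells, and MT-CO2 gave -0.88 and -0.83, MT-ND6 -0.78 and -0.81, and MT-CO1 -0.58 and -0.49. MT-ND1, the first complex I message, differed least between Ecto and Endo cells (-0.25, SE 0.07, adjusted p = 8e-04). Between Endo and VK2 cells, where 59.6% of all genes differed and 29.3% were higher in Endo cells, 5 of 13 mRNA genes were higher in Endo cells. These were MT-ND2, MT-CO3, MT-ND3, MT-ND4L and MT-ND4, the last by 0.32 (SE 0.06, adjusted p = 7e-07), and none was lower at this threshold. The count was 8 under scaling by library totals or with no filter, and 9 without replicate 3 of every group. The Endo to VK2 difference of MT-ND2 is uncertain by the split of counts with its nuclear copy MTND2P28. That copy took 3.68% to 4.26% of the pair's counts in Endo and 13.6% to 16.4% in VK2 libraries. In bulk RNA, fewer cells of a type and less RNA per cell cannot be told apart.

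The rRNAs separated Ecto cells further. MT-RNR2 (16S rRNA, chrM:1671-3229) had 1093, 1016 and 973 CPM in NT+noGV libraries of Ecto, against 6441, 6602 and 6234 CPM in Endo and 5273, 5220 and 5339 CPM in VK2 cells. CPM per gene are here and below scaled with TMM factors found within each line. The log2 fold change of Ecto was -2.77 (SE 0.12, adjusted p = 4.5e-26) against Endo and -2.56 (SE 0.12, adjusted p = 9.4e-25) against VK2 cells. MT-RNR1 (12S rRNA, chrM:648-1601) was lower by less, with -1.62 and -1.48, so that 16S counts were about 5 times the 12S counts in Ecto cells (5.24, 5.24 and 5.05) and about 11 times in the others (11.7, 11.4 and 11.4 for Endo cells, 11, 11.3 and 10.6 for VK2 cells). Ribosomal RNA was depleted before library preparation, so what is measured is the rRNA that remained. A difference in the level of 12S and 16S rRNA and a difference in how well it was removed cannot be told apart.

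**Figure D2:**
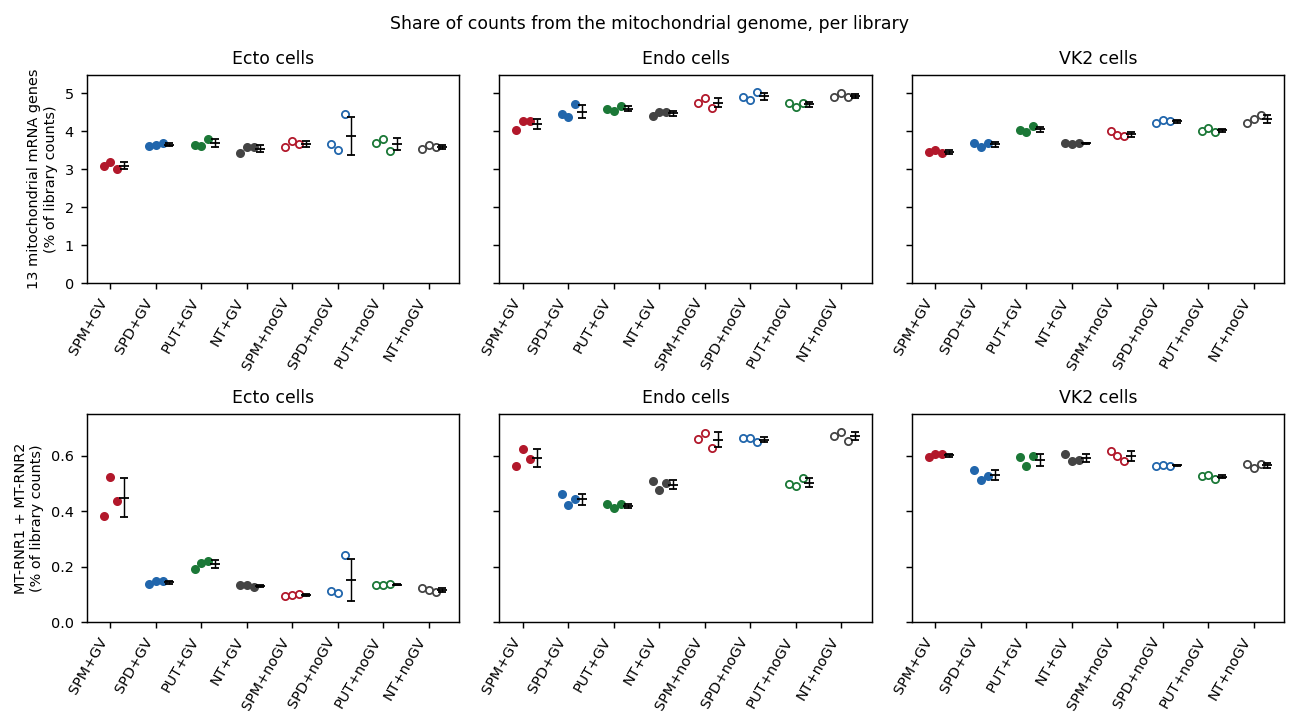
Percent of each library's counts in the 13 mitochondrial mRNA genes (top) and in MT-RNR1 plus MT-RNR2 (bottom), 1 point per library (filled with GV, open without) and bars for mean ± SD, n = 3, in 8 groups of each line. SPM+GV libraries are the lowest of the mRNA share among the groups with GV in each line, and the rRNA share of Ecto SPM+GV (0.383% to 0.523%) lies above all other Ecto libraries.

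With TMM scaling, exposure to GV alone lowered the 3 complex IV messages and MT-ATP6 in each line. The complex I messages had no common direction across the lines. MT-CO1 (ENSG00000198804.2, chrM:5904-7445), the catalytic subunit of cytochrome c oxidase, fell in all 3. It had 6903, 6839 and 7122 CPM in NT+GV, against 8679, 8923 and 9175 CPM in NT+noGV libraries of Ecto cells. In Endo cells it had 8275, 8579 and 8658 CPM in NT+GV, against 11936, 12269 and 12500 CPM in NT+noGV. In VK2 cells the values were 8470, 8714 and 8500 CPM in NT+GV, against 10516, 10963 and 11272 CPM in NT+noGV. All 3 exposed libraries lay below all 3 unexposed ones in every line. For Ecto cells the log2 fold change was -0.36 (SE 0.05, adjusted p = 4.8e-06), for Endo cells -0.52 (SE 0.03, adjusted p = 2.9e-14) and for VK2 cells -0.35 (SE 0.03, adjusted p = 4.6e-10), by edgeR's quasi-likelihood test adjusted over all genes.

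MT-CO2, MT-CO3 and MT-ATP6 fell as well. MT-CO3 gave -0.3, -0.31 and -0.36, MT-CO2 gave -0.26, -0.29 and -0.18, and MT-ATP6 gave -0.21, -0.26 and -0.26 in Ecto, Endo and VK2 cells, and each passed in each line (adjusted p at most 0.022). MT-CO2 in Ecto cells did not pass when libraries were scaled by their totals alone (-0.15, adjusted p = 0.084). It was not the only Ecto call lost: with that scaling 2 mRNA genes were lower in Ecto cells, in place of 4. Those 4 were MT-CO1, MT-CO2, MT-CO3 and MT-ATP6, so the Ecto call of another of them also rested on the scaling. MT-ATP8, which shares its mRNA with MT-ATP6, gave -0.32 (adjusted p = 2.1e-05) for Endo and -0.23 (adjusted p = 0.0029) for VK2 cells, and -0.09 for Ecto cells, which did not pass (adjusted p = 0.35). A measure that needs no scaling between libraries is the share of mitochondrial mRNA counts that falls on MT-CO1, MT-CO2 and MT-CO3. It was 39.4%, 38.4% and 39.3% in NT+GV against 44.6%, 44.2% and 44.9% in NT+noGV of Ecto, 44.2%, 43.7% and 44.7% against 49.9%, 50.2% and 51% of Endo, and 47.8%, 48.6% and 48.4% against 52.2%, 50.9% and 51.5% of VK2 cells. The exposed and unexposed libraries did not overlap in any line.

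Among the complex I messages MT-ND4, the most abundant, had log2 fold changes of -0.13, -0.02 and -0.02, and none passed (adjusted p = 0.16, 0.58 and 0.8), although without Ecto SPD+noGV replicate 3 the Ecto value did (-0.12, adjusted p = 0.025). MT-ND1 (chrM:3307-4262) rose in 2 lines. Its value was 0.22 for Ecto (SE 0.08, adjusted p = 0.039), 0.17 for VK2 (SE 0.04, adjusted p = 0.0023) and 0.05 for Endo cells (adjusted p = 0.38). MT-ND5 rose in Ecto cells, to 1941, 2084 and 1976 CPM in NT+GV against 1627, 1723 and 1671 CPM in NT+noGV (0.26, SE 0.05, adjusted p = 0.00026), and gave -0.04 in Endo and -0.02 in VK2 cells. In the model of all lines its Ecto response differed from those of Endo cells (by 0.31, SE 0.06, adjusted p = 9.3e-05) and of VK2 cells (by 0.3, SE 0.06, adjusted p = 0.00011). MT-ND3 rose in Ecto cells (0.26, adjusted p = 0.027) and fell in VK2 cells (-0.21, adjusted p = 0.00026). The ratio of MT-ND1 to MT-CO1 counts, a ratio chosen after its values were seen, was 22.2% to 25.2% in NT+GV and 15.1% to 16.2% in NT+noGV libraries of Ecto, 17.7% to 19.5% and 12.3% to 12.8% of Endo, and 19.9% to 21.5% and 14% to 14.6% of VK2 cells.

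MT-CYB, the mitochondrial subunit of complex III, responded in opposite directions. It had 2188, 2316 and 2365 CPM in NT+GV against 1889, 1983 and 2014 CPM in NT+noGV libraries of Ecto, and 2494, 2609 and 2457 against 2236, 2249 and 2233 CPM of Endo cells. VK2 cells had 1525, 1543 and 1551 CPM in NT+GV, against 1891, 2012 and 2015 CPM in NT+noGV. The exposed libraries were thus all higher in Ecto and Endo cells and all lower in VK2 cells. Log2 fold changes were 0.22 (SE 0.07, adjusted p = 0.0074), 0.17 (SE 0.04, adjusted p = 0.00053) and -0.36 (SE 0.03, adjusted p = 3.9e-10). In the model of all lines the response of MT-CYB in VK2 cells differed from that in Ecto (Ecto minus VK2 0.6, SE 0.07, adjusted p = 7.4e-10) and from that in Endo cells (Endo minus VK2 0.54, SE 0.07, adjusted p = 1.5e-08).

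**Figure D3:**
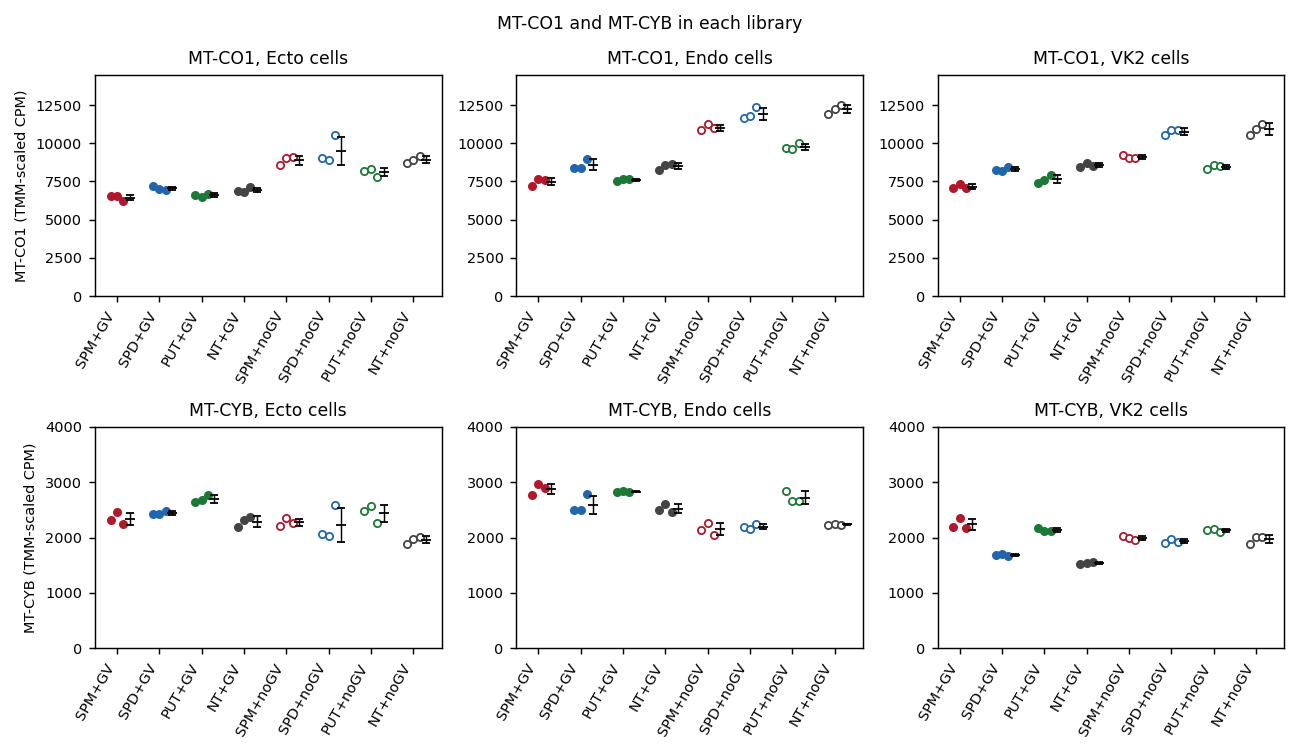
TMM-scaled CPM of MT-CO1 (complex IV) and MT-CYB (complex III) in every library (filled points with GV, open points without), with bars for mean ± SD, n = 3, by group and line. MT-CO1 is lower in NT+GV than in NT+noGV for each line, whereas MT-CYB with GV alone is higher in Ecto and Endo and lower in VK2 cells, and in VK2 cells PUT+GV and SPM+GV libraries lie above NT+GV.

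MT-ND6, at a far lower level, fell in Endo and VK2 cells. It had 57.1, 56.1 and 64.6 CPM in NT+GV against 89.3, 77.1 and 93.8 CPM in NT+noGV libraries of Endo cells (-0.55, SE 0.13, adjusted p = 0.0017). VK2 cells had 61, 67.7 and 69.7 against 98, 84.3 and 70 CPM (-0.35, SE 0.1, adjusted p = 0.02), where the groups almost touched, and the call was lost without NT+GV replicate 1, NT+noGV replicate 1 (-0.22) or NT+noGV replicate 2. In Ecto cells its value was -0.06 (adjusted p = 0.77). The rRNAs had no common direction: MT-RNR2 fell in Endo cells (-0.54, SE 0.04, adjusted p = 7e-13) and gave 0.05 and 0.06 in Ecto and VK2 cells, and MT-RNR1 rose in VK2 cells (0.35, SE 0.04, adjusted p = 2.7e-08), with 0.08 (adjusted p = 0.87) in Ecto cells. MT-RNR1 in Endo cells passed narrowly (-0.17, adjusted p = 0.041), and the call was lost with RLE, total-count or nuclear-gene scaling (-0.14, -0.1 and -0.15) and without any single library of either group.

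In all, GV alone raised 4 and lowered 4 of the 13 mRNA genes in Ecto, raised 1 and lowered 6 in Endo, and raised 1 and lowered 9 in VK2 cells. Of all genes tested, 44.6% passed for Ecto, 54.4% for Endo and 26.4% for VK2 cells, so 8 and 7 of 13 were close to the background and 10 of 13 in VK2 cells were above it. Without Ecto SPD+noGV replicate 3 the Ecto count was 5 higher and 5 lower, and without NT+noGV replicate 3 it was 5 in all. No share of all genes was taken in those fits. The median log2 fold change of the mRNA genes was -0.09, -0.07 and -0.22 in Ecto, Endo and VK2 cells, against 0 over all genes in each. Under scaling by library totals the Ecto and Endo medians were 0.02 and 0, beside 0.116 and 0.068 over all genes, and the split was 5 higher and 2 lower in Ecto and 3 higher and 6 lower in Endo cells. None of the genes changed by 2-fold or more.

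Relative to GV alone, SPM pretreatment before GV lowered the complex I messages MT-ND4, MT-ND4L and MT-ND5 and raised MT-ND1 in each line. MT-ND4 had 5745, 6392 and 5592 CPM in SPM+GV against 7275, 7289 and 7171 CPM in NT+GV libraries of Ecto, and 7057, 7780 and 7445 against 8899, 9322 and 8981 CPM of Endo cells. VK2 cells had 5284, 5396 and 5007 CPM in SPM+GV, against 7060, 6906 and 6791 CPM in NT+GV. The groups did not overlap in any line, and the log2 fold changes were -0.29 (SE 0.07, adjusted p = 0.0011), -0.29 (SE 0.04, adjusted p = 8.5e-08) and -0.4 (SE 0.04, adjusted p = 1e-10). MT-ND4L, on the same mRNA, gave -0.26, -0.23 and -0.32 (adjusted p at most 0.016).

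MT-ND5, the largest message, fell alongside. It had 1525, 1589 and 1379 CPM in SPM+GV against 1941, 2084 and 1976 CPM in NT+GV libraries of Ecto, 1453, 1540 and 1513 against 1790, 1846 and 1763 CPM of Endo, and 1424, 1433 and 1338 against 1752, 1739 and 1720 CPM of VK2 cells. Again no library of one group reached the other. The log2 fold changes were -0.42 (SE 0.05, adjusted p = 2.3e-07), -0.26 (SE 0.04, adjusted p = 3.4e-07) and -0.31 (SE 0.04, adjusted p = 2.2e-08). In contrast, MT-ND1 had 1885, 2103 and 1886 CPM in SPM+GV against 1530, 1721 and 1635 CPM in NT+GV libraries of Ecto, 1867, 2099 and 2039 against 1614, 1607 and 1533 CPM of Endo, and 1987, 2138 and 1980 against 1821, 1736 and 1712 CPM of VK2 cells. MT-ND1 was thus higher in all SPM+GV libraries, by 0.27 (SE 0.08, adjusted p = 0.01), 0.34 (SE 0.05, adjusted p = 2e-06) and 0.21 (SE 0.04, adjusted p = 5.6e-05). The Ecto call for MT-ND1 was lost without SPM+GV replicate 2 or without NT+GV replicate 1 (0.21 in each case).

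MT-CYB was raised by SPM most where GV alone had lowered it. In VK2 cells it had 2197, 2353 and 2171 CPM in SPM+GV against 1525, 1543 and 1551 CPM in NT+GV (0.54, SE 0.03, adjusted p = 3.2e-15), above the 1891 to 2015 CPM of NT+noGV libraries. In Endo cells it had 2777, 2964 and 2898 against 2494, 2609 and 2457 CPM (0.19, SE 0.04, adjusted p = 2e-04), and in Ecto cells 2315, 2453 and 2238 against 2188, 2316 and 2365 CPM, where the groups overlapped (0.03, adjusted p = 0.74). The VK2 response exceeded both others in the model of all lines (Ecto minus VK2 -0.5, adjusted p = 7.3e-08, and Endo minus VK2 -0.3, adjusted p = 0.0011). The oxidase messages differed between subunits. MT-CO1 fell further in Endo (-0.18, adjusted p = 5.1e-05) and VK2 cells (-0.26, adjusted p = 4.1e-08) and MT-CO2 did so too (-0.17 and -0.31), with -0.11 (adjusted p = 0.078) and -0.16 (adjusted p = 0.075) in Ecto cells, where both passed without SPD+noGV replicate 3 (-0.12 and -0.17). MT-CO3 gave 0.01, -0.03 and 0 in the 3 lines (adjusted p at least 0.48).

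**Figure D4:**
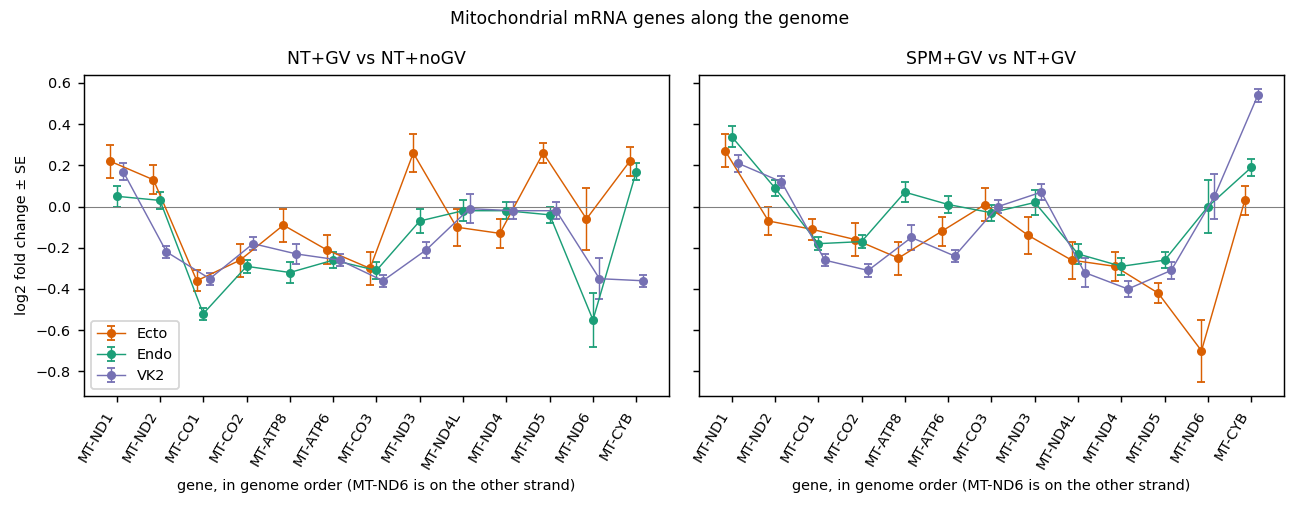
Log2 fold change ± SE of the mitochondrial mRNA genes in genome order for NT+GV against NT+noGV and SPM+GV against NT+GV, by line. Under GV alone the low points common to the 3 lines run over MT-CO1 to MT-CO3, with MT-CO1 at -0.36, -0.52 and -0.35. Under SPM+GV they run over MT-ND4L to MT-ND5.

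MT-ND6 fell with SPM in Ecto cells, to 37.7, 25.2 and 34.7 CPM in SPM+GV against 52.3, 60.5 and 45.4 CPM in NT+GV (-0.7, SE 0.15, adjusted p = 0.00069). Endo and VK2 cells gave 0 (adjusted p = 0.99) and 0.05 (adjusted p = 0.75), and the responses differed between lines (Ecto minus Endo -0.74, adjusted p = 0.0022; Ecto minus VK2 -0.73, adjusted p = 0.0019). MT-ATP8 fell in Ecto (-0.25, adjusted p = 0.0089) and VK2 cells (-0.15, adjusted p = 0.026) and had 0.07 in Endo cells. Its Ecto call was lost without NT+GV replicate 2 (-0.19), and its VK2 call under scaling by library totals (-0.07).

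Among the mRNA and rRNA genes, the rRNAs of Ecto cells with SPM+GV moved the most of all comparisons with GV inside a line. MT-RNR2 had 3231, 4498 and 3691 CPM in SPM+GV against 1094, 1073 and 1025 CPM in NT+GV, and MT-RNR1 had 635, 893 and 729 against 212, 213 and 206 CPM. The lowest SPM+GV library was about 3-fold above the highest NT+GV library for both genes, and both had the same log2 fold change of 1.84, which is 3.58-fold (SE 0.19, adjusted p = 3.9e-07 for MT-RNR2; SE 0.34, adjusted p = 0.00021 for MT-RNR1). Without SPD+noGV replicate 3 both were 1.83. The ratio of 16S to 12S counts was 5.09, 5.04 and 5.07 in SPM+GV and 5.17, 5.03 and 4.99 in NT+GV, so the 2 rRNAs rose in step. RNA5-8SN2, a nuclear rRNA gene, had 13.6, 13.5 and 14.1 CPM of library total in SPM+GV against 12.8, 10.9 and 10.4 CPM in NT+GV. Whether depletion differed between these groups was not tested.

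In Endo cells the rRNA rise was smaller and unequal. MT-RNR1 had 611, 813 and 702 CPM in SPM+GV against 498, 499 and 493 CPM in NT+GV (0.51, SE 0.07, adjusted p = 3.9e-06), and MT-RNR2 had 4923, 5449 and 5116 against 4572, 4245 and 4466 CPM (0.22, SE 0.04, adjusted p = 3.5e-05). VK2 cells gave 0.02 (adjusted p = 0.72) for MT-RNR1 and -0.05 (adjusted p = 0.18) for MT-RNR2. In the model of all lines the rRNA response of Ecto cells exceeded that of VK2 cells by 1.91 (SE 0.17, adjusted p = 1.9e-13) for MT-RNR2 and 1.83 (SE 0.28, adjusted p = 8.7e-07) for MT-RNR1. As a share of counts, the mRNA genes and the rRNA genes of Ecto cells went apart: mRNA took 3.08%, 3.2% and 3.01% in SPM+GV against 3.44%, 3.59% and 3.6% in NT+GV, and rRNA took 0.383%, 0.523% and 0.438% against 0.133%, 0.133% and 0.128%.

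With SPM+GV 1 mRNA gene rose and 5 fell in Ecto, 2 rose and 5 fell in Endo, and 3 rose and 7 fell in VK2 cells. All genes passed at 56%, 43% and 58.3% in the 3 lines, so 6 and 7 of 13 were near the background and 10 of 13 in VK2 cells were above it. Without Ecto SPD+noGV replicate 3 the Ecto count was 1 higher and 9 lower, but the share of all genes was not taken in that fit. The median of the mRNA genes was -0.14, 0 and -0.15 beside -0.02, -0.01 and -0.02 over all genes. Under scaling by library totals the VK2 split was 5 higher and 6 lower. Across the 3 lines 17 of 39 tests of a gene in a line were lower and 6 higher, all under 2-fold in size.

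**Figure D5:**
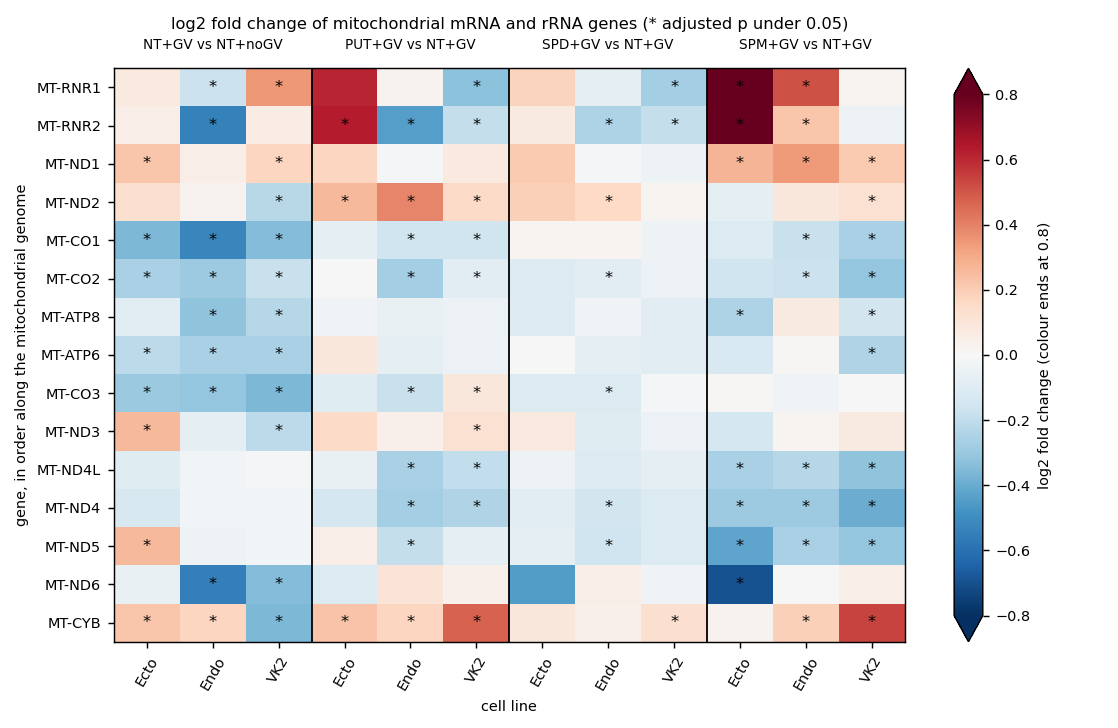
Log2 fold change of the 15 mRNA and rRNA genes (down the page, in genome order) in the 4 comparisons with GV and the 3 lines (across), with an asterisk where the adjusted p was under 0.05. The colour scale ends at 0.8 in either direction, so the Ecto rRNA values of 1.84 with SPM+GV are drawn at its end.

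PUT pretreatment before GV raised MT-ND2 and MT-CYB in each line. MT-ND2 (chrM:4470-5511), a core complex I subunit, had 3859, 3915 and 4179 CPM in PUT+GV against 3152, 3440 and 3413 CPM in NT+GV libraries of Ecto, 5121, 5047 and 5289 against 3855, 3981 and 3939 CPM of Endo, and 3066, 3016 and 3101 against 2724, 2742 and 2792 CPM of VK2 cells. The groups did not overlap, and the log2 fold changes were 0.26 (SE 0.07, adjusted p = 0.0043), 0.39 (SE 0.04, adjusted p = 5.1e-09) and 0.15 (SE 0.03, adjusted p = 0.00028). MT-CYB had 2641, 2671 and 2769 CPM in PUT+GV of Ecto, 2824, 2842 and 2819 of Endo and 2174, 2114 and 2125 CPM of VK2 cells, each above the NT+GV libraries given earlier. It rose by 0.23 (SE 0.07, adjusted p = 0.0037), 0.17 (SE 0.04, adjusted p = 0.00066) and 0.47 (SE 0.03, adjusted p = 7.7e-14). The Ecto calls for both genes were lost without PUT+GV replicate 3, where each was 0.16.

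Other messages passed in Endo and VK2 cells. MT-ND4 had 7636, 7439 and 7439 CPM in PUT+GV against 8899, 9322 and 8981 CPM in NT+GV libraries of Endo cells (-0.27, SE 0.04, adjusted p = 1.1e-07). VK2 cells had 5802, 5764 and 6026 against 7060, 6906 and 6791 CPM (-0.24, SE 0.04, adjusted p = 2.6e-06, but -0.05 under scaling by library totals). Its Ecto value of -0.14 (adjusted p = 0.1) passed without SPD+noGV replicate 3 (-0.14, adjusted p = 0.0093), as did that of MT-CO3 (-0.1, adjusted p = 0.0069). MT-CO1 had -0.07, -0.16 and -0.16 and MT-CO2 0, -0.27 and -0.09 in Ecto, Endo and VK2 cells, of which the Endo and VK2 values passed, and both VK2 values turned to 0.02 and 0.1 under scaling by library totals. MT-CO3 fell in Endo cells (-0.18, adjusted p = 6.1e-05) and rose in VK2 cells (0.09, adjusted p = 0.011).

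PUT+GV counts were 2 higher and 0 lower in Ecto, 2 higher and 6 lower in Endo, and 4 higher and 4 lower in VK2 cells, where 56.3%, 56.1% and 60.4% of all genes passed. The Ecto share was far below its background and the others were close to it. Without Ecto SPD+noGV replicate 3 the Ecto count was 4 higher and 2 lower, without PUT+GV replicate 3 it was 1 in all, and without NT+GV replicate 1 the VK2 count was 5 in all. Those fits have no share of all genes beside them. The medians were 0, -0.07 and -0.05, beside 0.07, 0.03 and 0.01 over all genes. The split depended on how libraries were scaled. Under scaling by library totals the median of all genes was 0.122, 0.17 and 0.199 in PUT+GV, and the mRNA genes split into 4 higher and 3 lower in Endo and 9 higher and 0 lower in VK2 cells, while RLE size factors gave 2 higher and 2 lower in Ecto cells. The shares of all genes raised or lowered under these scalings were not taken, so these splits cannot be read against a background. Log2 fold changes given here are relative to the TMM scaling. As a plain share of counts, the mRNA genes took 4.04%, 3.99% and 4.13% in PUT+GV against 3.69%, 3.66% and 3.7% in NT+GV libraries of VK2 cells, while their summed TMM-scaled CPM had a log2 ratio of -0.05.

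The rRNAs moved apart between lines with PUT+GV. MT-RNR2 had 1522, 1678 and 1731 CPM in PUT+GV against 1094, 1073 and 1025 CPM in NT+GV libraries of Ecto cells, all higher (0.63, SE 0.19, adjusted p = 0.0094, lost without PUT+GV replicate 3 at 0.53). In Endo cells it had 3339, 3200 and 3263 against 4572, 4245 and 4466 CPM, all lower (-0.44, SE 0.04, adjusted p = 8.1e-11). In VK2 cells it gave -0.19 (adjusted p = 9.6e-06), which was 0 under scaling by library totals. The Ecto response differed from that of Endo by 1.02 (SE 0.16, adjusted p = 2.8e-06) and from that of VK2 cells by 0.77 (SE 0.16, adjusted p = 0.00016). MT-RNR1 gave 0.61 (adjusted p = 0.14), 0.03 (adjusted p = 0.77) and -0.33 (adjusted p = 1.4e-08). Its Ecto values, 283, 346 and 331 CPM in PUT+GV against 212, 213 and 206 CPM in NT+GV, did not overlap, and passed without Ecto SPD+noGV replicate 3 (adjusted p = 3.8e-05). In Endo cells the ratio of 16S to 12S counts was 6.81, 6.27 and 6.31 in PUT+GV against 9.18, 8.51 and 9.05 in NT+GV. Lower MT-RNR2 in these cells was also seen with PUT but no GV. It had 4724, 4668 and 4941 CPM in PUT+noGV against 6441, 6602 and 6234 CPM in NT+noGV.

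SPD pretreatment before GV had small effects. No mRNA gene passed in Ecto cells, where 13.1% of all genes did, 3 of 13 had an unadjusted p under 0.05, and DESeq2 called 1. The nearest was MT-ND6, with 41.2, 36.1 and 38.1 CPM in SPD+GV against 52.3, 60.5 and 45.4 CPM in NT+GV (-0.45, SE 0.15, adjusted p = 0.051). Without Ecto SPD+noGV replicate 3 there were 2 higher and 3 lower, with no share of all genes taken in that fit. In Endo cells, where 13.9% of all genes passed and 5 of 13 mRNA genes did, MT-ND2 rose (0.16, adjusted p = 0.014) and 4 fell, among them MT-ND5 (-0.16, SE 0.04, adjusted p = 0.0026) and MT-ND4 (-0.15, SE 0.04, adjusted p = 0.0041). The count of 5 was 2 without NT+GV replicate 1 and 3 without SPD+GV replicate 1 or 2, and under scaling by library totals 2 were higher and 0 lower. That scaling also gave 2 higher and 0 lower in Ecto cells. In VK2 cells, where 12.7% passed, MT-CYB rose to 1693, 1706 and 1659 CPM in SPD+GV against 1525, 1543 and 1551 CPM in NT+GV (0.13, SE 0.03, adjusted p = 0.0068), and MT-ND5 was at the threshold (-0.11, adjusted p = 0.05), a call lost without any single library of either group, with RLE size factors and under scaling by library totals. MT-RNR2 fell in Endo (-0.25, adjusted p = 7.4e-05) and VK2 cells (-0.19, adjusted p = 0.00017) and gave 0.07 in Ecto cells.

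SPM and SPD were given at the same dose and time, so this pair of compounds could be compared directly, in 39 tests of an mRNA gene in a line with p-values adjusted over all genes. SPM is SPD with a further aminopropyl group. SPM+GV differed from SPD+GV by 0 higher and 5 lower genes in Ecto, 2 higher and 4 lower in Endo, and 4 higher and 6 lower in VK2 cells, where 53.8%, 44.6% and 52.6% of all genes passed. The Ecto split was 0 higher and 2 lower with RLE, 0 and 10 under scaling by library totals, and 1 and 7 without SPD+noGV replicate 3. The Endo split was 4 higher and 3 lower with RLE or nuclear-gene scaling and 1 higher and 6 lower under scaling by library totals. MT-ND5 was lower with SPM in each line (-0.35, -0.11 and -0.2, SE 0.05, 0.04 and 0.04, adjusted p = 3.9e-06, 0.015 and 4.7e-05), as were MT-ND4 (-0.2, -0.14 and -0.3, adjusted p at most 0.02) and MT-CO1 (-0.13, -0.2 and -0.22, adjusted p at most 0.041). MT-ND1 was higher in Endo (0.34, adjusted p = 1.6e-06) and VK2 cells (0.25, adjusted p = 6e-06) and differed by 0.05 in Ecto cells (95% interval -0.11 to 0.22, adjusted p = 0.61). MT-CYB was higher in Endo (0.15) and VK2 cells (0.41) and differed by -0.07 in Ecto cells (95% interval -0.2 to 0.06, adjusted p = 0.41). MT-CO3 did not pass in any line, with differences of 0.13 (interval -0.02 to 0.28), 0.08 (0.01 to 0.15) and 0.01 (-0.05 to 0.07), but did in Ecto cells without SPD+noGV replicate 3 (0.11, adjusted p = 0.0037). Both rRNAs were higher with SPM in all 3 lines, MT-RNR2 by 1.77, 0.47 and 0.14 and MT-RNR1 by 1.66, 0.58 and 0.29 in Ecto, Endo and VK2 cells (adjusted p at most 0.00068).

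The polyamines were also given without GV. PUT+noGV against NT+noGV raised 3 and lowered 3 mRNA genes in Ecto, raised 2 and lowered 2 in Endo, and raised 1 and lowered 5 in VK2 cells, beside 46.8%, 31.9% and 45% of all genes. Under scaling by library totals the splits were 4 and 0 in Ecto and 3 and 3 in VK2 cells, and without SPD+noGV replicate 3 the Ecto split was 4 and 3. MT-CYB was raised everywhere (0.32, 0.28 and 0.11, adjusted p at most 0.0064), as with PUT+GV. MT-CO1 fell too (-0.14, -0.33 and -0.37, adjusted p at most 0.032), although its Ecto call was lost under scaling by library totals (-0.05, adjusted p = 0.38). SPM+noGV raised 1 gene in Ecto (MT-CYB, 0.21) and lowered 1 in Endo (MT-CO1, -0.15) and 3 in VK2 cells (MT-CO1, MT-ND4 and MT-CO2, -0.27, -0.16 and -0.14), beside 23.5%, 18.1% and 33% of all genes. Without Ecto SPD+noGV replicate 3, SPM+noGV raised 3 genes in Ecto cells (MT-CYB, MT-CO3 and MT-ND3, 0.21, 0.17 and 0.14) and lowered MT-CO2 (-0.12). SPM+noGV against SPD+noGV lowered 1, 1 and 3 genes in Ecto, Endo and VK2 cells (20.4%, 12.6% and 28.3% of all genes). The Ecto split of 0 higher and 1 lower rested on that library, and without it 2 were higher (MT-CO3, 0.19, and MT-CYB, 0.14) and 0 lower. Of the 2 rRNA genes, PUT+noGV lowered 0, 1 and 2 in Ecto, Endo and VK2 cells and raised none. SPM+noGV raised 1 in VK2 cells and lowered none. Without Ecto SPD+noGV replicate 3, MT-RNR2 was lower with SPM+noGV than with NT+noGV in Ecto cells (-0.27, adjusted p = 0.024).

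SPD+noGV called no mRNA gene in any line by edgeR, where 0.303%, 0.181% and 0.46% of all genes passed. At an unadjusted p under 0.05 there were 5, 0 and 0 of 13 in Ecto, Endo and VK2 cells, and leaving the low counts in gave 2 over the 3 lines. The Ecto group holds the library that stood apart, and its count remained 0 without that library.

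The effect of a polyamine with GV was then set against its effect without GV, as an interaction in the same model. For SPM, 0 interactions were positive and 5 negative in Ecto, 2 and 2 in Endo, and 3 and 5 in VK2 cells, beside 36.3%, 24.3% and 38.9% of all genes. Without SPD+noGV replicate 3 the Ecto split was 0 positive and 10 negative, with no share of all genes taken in that fit. Under scaling by library totals it was 0 and 8, and the VK2 split was 6 and 2. MT-ND5 (-0.33, -0.29 and -0.25) and MT-ND4 (-0.27, -0.23 and -0.24) had negative interactions in all 3 lines (adjusted p at most 0.036). Without GV, SPM lowered MT-ND4 past the threshold in VK2 cells only and MT-ND5 in no line. MT-CYB had positive interactions of 0.25 for Endo (adjusted p = 0.0012) and 0.53 for VK2 cells (SE 0.05, adjusted p = 1.3e-10), with -0.19 for Ecto cells (adjusted p = 0.12, and 0.0074 without SPD+noGV replicate 3). MT-ND6 in Ecto cells had -1.04 (SE 0.21, adjusted p = 0.00073), the one mRNA interaction beyond 2-fold. The rRNA interactions in Ecto cells were 2.1 for MT-RNR2 (SE 0.27, adjusted p = 1e-05) and 1.99 for MT-RNR1 (SE 0.48, adjusted p = 0.0035): the SPM+noGV libraries had 822, 868 and 877 CPM of MT-RNR2 against 1093, 1016 and 973 CPM in NT+noGV, so that SPM was followed by a high rRNA level only where GV was added.

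For PUT the interactions were 0 and 0 in Ecto, 1 positive and 5 negative in Endo, and 5 positive and 0 negative in VK2 cells, beside 26.4%, 34.8% and 27.6% of all genes. None of the 13 had an unadjusted p under 0.05 in Ecto cells, but without SPD+noGV replicate 3 MT-CO2 passed there (0.21, adjusted p = 0.00067). Under scaling by library totals the VK2 split was 8 and 0. The VK2 interactions included MT-CYB (0.36, SE 0.05, adjusted p = 5.7e-07) and MT-CO1 (0.2, SE 0.05, adjusted p = 0.0012), and the Endo interactions MT-ND5 (-0.24, SE 0.05, adjusted p = 0.00024) and MT-CO2 (-0.14, adjusted p = 0.015), which was 0.02 under scaling by library totals. The Endo split under the same scaling was 2 positive and 0 negative, with MT-ND5 at -0.08 (adjusted p = 0.16). For SPD there was 1 interaction, MT-ND5 in Endo cells (-0.19, SE 0.05, adjusted p = 0.03), beside 3.13%, 3.45% and 0.352% of all genes in Ecto, Endo and VK2 cells.

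The ratio of MT-CYB to MT-ND4 counts, chosen after its values were seen, put these patterns on a scale that does not depend on how libraries were normalized. In VK2 cells it was 41.6%, 43.6% and 43.4% in SPM+GV, 37.5%, 36.7% and 35.3% in PUT+GV, 25.7%, 27.1% and 25.9% in SPD+GV, and 21.6%, 22.3% and 22.8% in NT+GV. The 4 groups did not overlap. In Ecto cells it was 38.4% to 40.3% in SPM+GV, 40.9% to 41% in PUT+GV, 35.3% to 36.8% in SPD+GV and 30.1% to 33% in NT+GV, and in Endo cells 38.1% to 39.4%, 37% to 38.2%, 30.5% to 33.4% and 27.4% to 28%. The lowest ratio of each pretreated group thus lay above the highest NT+GV ratio in all 3 lines. GV alone raised the ratio over NT+noGV in Ecto (30.1% to 33% in NT+GV, 24.5% to 25.2% in NT+noGV) and Endo cells (27.4% to 28% and 23.6% to 25%) and lowered it in VK2 cells (21.6% to 22.8% and 27.8% to 28.6%). Without GV the ratio was also higher with PUT, at 35.7% to 36.6% in Ecto, 30.2% to 31.5% in Endo and 33.6% to 35.5% in VK2 cells. SPM+noGV lay above NT+noGV in Ecto (28.9% to 29.7%) and VK2 cells (31.6% to 32.1%). In Endo cells it did not (24.1% to 24.6%). SPD+noGV lay above NT+noGV in Ecto cells (26.1% to 27.7%) but not in Endo (23.3% to 24.2%) or VK2 cells (27.5% to 28.5%). With 3 libraries against 3, an exact permutation test cannot give a p under 0.10, so no test of the ratio is given.

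Across the 3 pairs of lines, differences in response were also counted over the 13 mRNA genes, as 39 tests. For GV alone 11 differed, beside 28%, 27.5% and 25.8% of all genes for Ecto minus Endo, Ecto minus VK2 and Endo minus VK2. For PUT+GV 7 differed (24.8%, 35% and 22.4% of all genes), and for SPM+GV 10 did (25.8%, 31.6% and 24.6%), so the counts were at or below the background. None differed for SPD+GV by edgeR (0.722%, 5.16% and 1.13% of all genes), with 2, 3 and 0 of 13 at an unadjusted p under 0.05 and 3 in all with no filter on low counts. With 2 libraries per group the counts were lower: without replicate 1 of every group they were 6 for GV alone and 1 for PUT+GV, and without replicate 2 the SPM+GV count was 2.

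The tRNA genes could not be followed at this depth. Their lengths of 59 to 75 bases are short for this method, and together the 22 genes had 2755 counts over all 72 libraries, beside 93876388 for the mRNA genes. A library held between 7 and 85 tRNA counts, with a median of 37. None reached a mean of 1 CPM in any line, MT-TG and MT-TS2 had no count in any library, and MT-TL1 and MT-TY held 55% of all tRNA counts. Of the 22 genes, MT-TL1 passed the filter on low counts in each line and MT-TY in Endo and VK2 cells. MT-TL1, the leucine tRNA that directly follows MT-RNR2 on the genome, had 13, 19 and 12 counts in SPM+GV against 5, 4 and 2 counts in NT+GV libraries of Ecto cells. In Ecto cells MT-TL1 passed the filter through the SPM+GV libraries, where it is high, so no test of this difference is given. It is named after its values were seen. Whether such reads come from the tRNA itself or from unprocessed precursors was not tested.

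Counts were also assigned to nuclear copies of the mitochondrial genome. Whether these reads came from the copies or from the mitochondrial genes was not tested. MTATP6P1 on chromosome 1 (chr1:633696-634376) matches MT-ATP6 at 98.53% of bases, with 10 mismatches over 681 bases. The window below is the same stretch of both genes, chrM:8642-8701 and chr1:633811-633870, with the 3 differing bases in capitals, and it shows how few positions can separate a read of one from a read of the other.
MT-ATP6: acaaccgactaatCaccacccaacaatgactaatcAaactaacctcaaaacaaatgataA
MTATP6P1: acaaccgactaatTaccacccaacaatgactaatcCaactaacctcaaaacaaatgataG
MTATP6P1 took 10.9% to 12.2% of the summed counts of the pair in Ecto and Endo libraries and 15% to 16.6% in VK2 libraries. MTND2P28, a copy of MT-ND2 with 98.37% identity, took 3.38% to 4.51% in Ecto and Endo and 13.6% to 16.4% in VK2 libraries. MTCO1P12, also on chromosome 1, is a copy of MT-CO1 with 98.7% identity (20 mismatches over 1542 bases). Its share of that pair's counts was not taken. The levels of MT-ATP6, MT-ND2 and MT-CO1 are uncertain by such splits. Adding the copies to their members changed no direction of a named gene inside a line.

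Beside the members, nuclear genes that serve the mitochondrial genome were counted from fixed lists. Of 75 nuclear subunits of complexes I, III, IV and the ATP synthase, GV alone raised 0 and lowered 36 in Ecto, raised 6 and lowered 38 in Endo, and raised 2 and lowered 7 in VK2 cells (medians -0.19, -0.11 and -0.01). Of all genes, GV alone raised 20.9%, 25.7% and 13.9% and lowered 23.7%, 28.7% and 12.5% in Ecto, Endo and VK2 cells. ATP5MC2, which encodes the c subunit of the ATP synthase, was -0.74, -0.5 and -0.17 (adjusted p at most 0.0043). PUT+GV lowered 31, 65 and 41 of the 75 and raised 17, 1 and 3 (medians -0.13, -0.28 and -0.15), with the complex I subunit NDUFA10 at -0.53, -0.67 and -0.49 (adjusted p at most 3.1e-10). It lowered 24.9%, 28.2% and 31.4% of all genes and raised 31.5%, 27.9% and 29%. SPM+GV raised 28, 15 and 19 and lowered 4, 6 and 21 (medians 0.12, 0.05 and -0.01). Of all genes it raised 28.5%, 21.9% and 27.9% and lowered 27.5%, 21.1% and 30.3%. SPD+GV raised none and lowered 7, 28 and 3, beside 6.53%, 5.22% and 4.84% of all genes raised and 6.6%, 8.71% and 7.87% lowered. In Endo cells, for example, 65 of 75 nuclear subunits fell with PUT+GV, while 6 of the 13 mitochondrial mRNA genes fell and 2 rose.

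Among 8 genes for the transcription of mitochondrial DNA, SPM+GV lowered POLRMT, the polymerase (-0.34, -0.18 and -0.3 in Ecto, Endo and VK2 cells, adjusted p at most 0.0024), and raised TFB2M, its initiation factor (0.43, 0.48 and 0.46, adjusted p at most 2.1e-06). In all, SPM+GV raised 1, 2 and 3 and lowered 2, 1 and 1 of these 8 in Ecto, Endo and VK2 cells. Of 8 genes for stability and decay of mitochondrial RNA, GV alone raised 1, 2 and 0 and lowered 6, 3 and 3, and PUT+GV raised 1, 1 and 0 and lowered 5, 5 and 4. LRPPRC, which stabilizes mitochondrial mRNAs, was -0.36, -0.33 and -0.3 with GV alone and -0.89, -0.78 and -0.72 with PUT+GV (adjusted p at most 0.00015). SPM+GV raised 4, 4 and 2 and lowered 1, 0 and 4 of the 8. PDE12, a deadenylase of mitochondrial RNA, rose by 0.36, 0.38 and 0.53, and LRPPRC was 0.3, 0.12 and -0.16. Among 15 genes for processing of mitochondrial RNA, FASTKD5, needed for release of messages that tRNAs do not flank, rose with SPM+GV by 0.54, 0.43 and 0.98 and with PUT+GV by 0.93, 0.45 and 0.91 (adjusted p at most 1.4e-05). Counts over these 15 were 4 higher and 3 lower, 5 and 0, and 6 and 1 with SPM+GV in Ecto, Endo and VK2 cells, and 4 and 9, 1 and 8, and 5 and 5 with PUT+GV.

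Of 12 genes for maintenance of mitochondrial DNA, SPM+GV raised 8 in each line and lowered 2, 1 and 2. POLG2, the accessory subunit of the DNA polymerase, rose by 0.99, 0.5 and 0.58 (adjusted p at most 1.1e-07), and TOP1MT, the mitochondrial topoisomerase, was -0.25, -0.21 and -0.57. Of 8 regulators of mitochondrial biogenesis (7 tested in VK2 cells), SPM+GV raised 3 in each line and lowered 2, with PPRC1, a coactivator of the PGC-1 family, at 0.75, 0.44 and 0.32 (adjusted p at most 4.9e-08). Of 78 mitochondrial ribosomal proteins, which assemble on the 12S and 16S rRNAs, SPM+GV raised 20, 24 and 26 and lowered 7, 8 and 16, and GV alone raised 4, 25 and 6 and lowered 42, 16 and 9. The background for all of these counts is the share of all genes raised or lowered in each comparison, given above with the nuclear subunits. The part of these nuclear genes in the levels of the mitochondrial transcripts was not tested.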

How the data were processed

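Human ectocervical, endocervical and vaginal epithelial lines were sequenced after rRNA depletion with a strand-specific total RNA kit that carries molecular identifiers. Whether reads were collapsed by identifier is not given in the sources used here. The authors quantified transcripts with Salmon against GENCODE release 44 and used tximeta to sum them per gene. The submitters' processing notes name FastQC, GRCh38.p13 and R 4.32, and the deposited table holds whole-number counts per gene and library with GENCODE release 44 identifiers. The counts of all 72 columns were used.

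Groups came from the sample titles. Each line was fitted on its own (24 libraries, 8 groups) with the quasi-likelihood test of edgeR 4.0.16 in R 4.3.3, after TMM scaling and removal of low counts, with robust dispersions. The filter left 19459 genes for Ecto, 18741 for Endo and 18474 for VK2 cells. P-values were adjusted over all genes by Benjamini-Hochberg, and a gene passed at an adjusted p under 0.05. Differences between lines came from one model of all 72 libraries (21195 genes). The scripts were tested on simulated counts. Library totals had a median of 31872238.5 counts, and p-values come from the spread between libraries.

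Alternatives were RLE size factors, DESeq2 1.42.0, no filter, total-count scaling, scaling on nuclear genes, a replicate block, nuclear copies added to their members, a fold change of at least 2, and leaving out each library. Leaving out Ecto SPD+noGV replicate 3 from every Ecto fit was chosen after seeing the data. Sequences and coordinates were read from the GRCh38 genome with the release 44 annotation, whose 37 MT genes all matched. Members and lists of nuclear genes were chosen with earlier results of these data known.

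All mRNA and rRNA members were described, with statistics per comparison for MT-RNR1, MT-RNR2, MT-ND6 and up to 4 further mRNA genes with the smallest adjusted p, and further members by value. Genes of a nuclear list were named if among the 2 with the smallest adjusted p of those past the threshold in a comparison and line, and then given in all 3 lines and, for LRPPRC, all comparisons discussed. A tRNA gene was to be described at a mean of at least 1 CPM. MT-TL1 and the ratios of MT-CYB to MT-ND4 and MT-ND1 to MT-CO1 were chosen after their values were seen.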

Additional observations from a re-analysis of the deposited data

Results flagged for a closer look

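The response to the same exposure differed between lines for 27 combinations of a named member and a pair of lines, by a test of the difference itself (log2 scale, edgeR's quasi-likelihood test in the model of all 72 libraries, adjusted over all genes). Apart from MT-RNR1, MT-RNR2 and MT-ND6, members were named for a small adjusted p in these same libraries. The 27 is therefore not a rate.

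For GV alone, MT-CYB set VK2 cells apart, with Ecto minus VK2 at 0.6 (adjusted p = 7.4e-10) and Endo minus VK2 at 0.54 (adjusted p = 1.5e-08). MT-ND5 set Ecto cells apart, with Ecto minus Endo at 0.31 (adjusted p = 9.3e-05) and Ecto minus VK2 at 0.3 (adjusted p = 0.00011). MT-CO1 fell more in Endo cells than in the others (Ecto minus Endo 0.18, adjusted p = 0.015; Endo minus VK2 -0.16, adjusted p = 0.031), and so did MT-RNR2 (0.6, adjusted p = 0.0037; -0.59, adjusted p = 0.0048). MT-ND6 gave 0.5 for Ecto minus Endo (adjusted p = 0.034).

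For PUT+GV against NT+GV, MT-CYB rose more in VK2 cells (Ecto minus VK2 -0.29, adjusted p = 0.0011; Endo minus VK2 -0.31, adjusted p = 0.00081). The rRNAs were higher in Ecto cells, MT-RNR2 by 1.02 against Endo (adjusted p = 2.8e-06) and 0.77 against VK2 (adjusted p = 0.00016), and MT-RNR1 by 0.89 against VK2 (adjusted p = 0.011). MT-CO2 gave 0.22 (adjusted p = 0.023) and MT-ND5 gave 0.2 (adjusted p = 0.014) for Ecto minus Endo, and MT-ND2 gave 0.24 (adjusted p = 0.024) for Endo minus VK2.

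For SPM+GV against NT+GV the rRNAs of Ecto cells differed the most, MT-RNR2 by 1.58 against Endo (adjusted p = 9.3e-11) and 1.91 against VK2 (adjusted p = 1.9e-13), and MT-RNR1 by 1.29 (adjusted p = 0.00041) and 1.83 (adjusted p = 8.7e-07). MT-ND6 fell more in Ecto cells (-0.74 against Endo, adjusted p = 0.0022; -0.73 against VK2, adjusted p = 0.0019), as did MT-ATP8 (-0.36 against Endo, adjusted p = 0.0036) and MT-ND5 (-0.2 against Endo, adjusted p = 0.014). MT-CYB gave -0.5 for Ecto minus VK2 (adjusted p = 7.3e-08) and -0.3 for Endo minus VK2 (adjusted p = 0.0011).

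Of these differences, the 18 of mRNA genes stand among counts that were at or below the share of all genes, as given above. The other 9 are of rRNA genes, which those counts do not cover. Groups of 3 libraries are too small for a test of single outlying values.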

How the results depend on the processing

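Total-count scaling turned the sign of 3 called differences: MT-CO1 with PUT+GV in VK2 cells was 0.02 (adjusted p = 0.46) in place of -0.16, MT-CO2 there was 0.1 in place of -0.09, and the PUT interaction of MT-CO2 in Endo cells was 0.02 in place of -0.14. No other called mRNA difference turned its sign under RLE, total-count or nuclear-gene scaling. A fold change of at least 2 left 0 mRNA genes in every comparison, except 1 of 17 for the SPM interaction. For Ecto PUT+GV the count of 2 was 4 with RLE, 4 with DESeq2 and 5 with no filter, and the median was -0.06 with RLE and DESeq2 instead of 0. For Ecto SPD+GV the count of 0 was 1 with RLE, DESeq2 or the replicate block, 3 with no filter and 2 under total-count scaling. For Endo SPD+GV, 5 was 2 under total-count scaling. For VK2 SPD+GV, 2 was 1 with RLE, no filter or total-count scaling and 4 with DESeq2 or the replicate block. Over 3 lines, no filter gave 2 for SPD+noGV in place of 0, 8 for SPM+noGV in place of 5 and 3 for differences between lines with SPD+GV in place of 0. The SPD interaction count of 1 was 4 with DESeq2, 3 with no filter and 2 with nuclear-gene scaling or the replicate block. Endo against VK2 gave 8 with no filter or total-count scaling in place of 5. The cause of these changes was not tested. For none of these settings was the share of all genes passing taken.

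Total-count scaling moved the medians of the mRNA genes to 0.02 (Ecto, GV alone), 0 (Endo, GV alone), 0.07 (Endo PUT+GV), 0.14 (VK2 PUT+GV) and -0.07 (VK2 SPM+GV). The log2 ratio of summed mRNA CPM became -0.02, 0.06, 0.04 and -0.19 for GV alone, PUT+GV, SPD+GV and SPM+GV in Ecto cells, where TMM gave -0.13, 0.01, 0 and -0.13. In Endo cells it became -0.14, 0.04 and 0.01 for GV alone, PUT+GV and SPD+GV (TMM -0.21, -0.1 and -0.05, and -0.12 for PUT+GV with nuclear-gene scaling). In VK2 cells it became 0.14, -0.01 and -0.09 for PUT+GV, SPD+GV and SPM+GV (TMM -0.05, -0.05 and -0.16). Adding the nuclear copies changed no call of a named gene inside a line. Calls of single genes between lines were not compared with the copies added.

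With 1 library left out, counts ranged over 5 to 10 (GV alone), 1 to 6 (PUT+GV), 0 to 5 (SPD+GV) and 5 to 10 (SPM+GV) in Ecto cells, where the highest was always without SPD+noGV replicate 3. They ranged over 7 to 7, 8 to 9, 2 to 7 and 7 to 8 in Endo and 9 to 10, 5 to 8, 1 to 2 and 9 to 10 in VK2 cells. Over 3 lines they ranged over 12 to 17 for PUT+noGV, 0 to 1 for SPD+noGV, 4 to 8 for SPM+noGV, 18 to 24 for SPM+GV against SPD+GV, 4 to 6 for SPM+noGV against SPD+noGV, and 10 to 12, 0 to 2 and 15 to 22 for the PUT, SPD and SPM interactions. The median ranged over -0.07 to 0.03 for Ecto PUT+GV and -0.12 to -0.07 for Endo PUT+GV. In the model of all lines only 1 replicate number of every group was left out at a time, which gave 6 to 12, 1 to 7, 0 to 1 and 2 to 10 differences between lines for GV alone, PUT+GV, SPD+GV and SPM+GV, 13 to 13 for Ecto against Endo, 10 to 11 for Ecto against VK2 and 4 to 9 for Endo against VK2. Leaving out single libraries in that model was not run, nor was DESeq2.

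No pairing of libraries by replicate number was detected: over 27 pairs of groups, 0 had all 3 correlations of same-numbered libraries over 0.1, and they ran from -0.06 to 0.11. These correlations were taken over all genes tested, low ones included, so a weak pairing is not excluded. Beyond the 3 counts given above, a fit with the replicate block gave 2 in place of 1 for SPM+noGV against NT+noGV and against SPD+noGV in Endo cells and moved no other count inside a line by over 1.5 times, and among named genes it added only the call of MT-ND6 with SPD+GV in Ecto cells (-0.46).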
